A study of Rattus norvegicus with 8 samples.

Results

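The genes described here are 32 genes for integrins and focal adhesion proteins in the Achilles tendon of the rat, measured 12 hours after a single run and in rats that did not run. They were chosen by gene name from a list whose rule uses no measured value, though earlier results of these data were known when it was written, and comprise 12 integrin alpha subunits, 4 integrin beta subunits, and 16 proteins that link integrins to actin or carry their signals. All 32 names were found among the 32883 genes of the count table, and all 32 were among the 13937 genes with enough reads to be tested. The study asked how the tendon responds to physiological loading by running. Messenger RNA with a poly(A) tail was sequenced from the right Achilles tendon, with 1 library per rat. The running group (12 h p.r., where p.r. stands for post-running) held 4 male Sprague-Dawley rats of 8 to 10 weeks, which ran on a treadmill for 1 hour at 20 m/min on an incline of 10 degrees and were killed 12 hours later. The control group (NC) held 4 such rats that rested in their cages and were killed at the same time. The labels give the genotype of all 8 rats as WT.

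Integrins are receptors made of 1 alpha and 1 beta chain that cross the cell membrane and hold the cell to its matrix. The alpha chain largely sets the ligand, such as collagen, laminin, or the Arg-Gly-Asp (RGD) motif of fibronectin and vitronectin, while the short tail of the beta chain binds talin and kindlin inside the cell. Talin, vinculin, alpha-actinin, filamin, and the complex of ILK, PINCH, and parvin join these tails to actin at focal adhesions, where FAK and Src signal with the scaffolds paxillin and p130Cas. In tendon, tenocytes are held to a matrix rich in type I collagen through such contacts, through which load on the fibers reaches the cells.

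Total counts ran from 7350509 to 12951397 per rat, and the 32 genes together took 35054 to 63479 reads, or 0.428 to 0.543% of the counts. The libraries differed in markers of neighboring tissues. The summed level of 9 skeletal muscle marker genes was 61600 CPM (reads per 1e+06, with library sizes scaled by edgeR's TMM factors) in 12 h p.r. replicate 3 and between 2336 and 11393 CPM in the other 7 rats. The same library had the lowest sum of 8 tenocyte markers, 16246 CPM, where the remaining libraries ran from 27319 to 48465. Cartilage and bone markers (8 genes) summed to 1453 CPM in NC replicate 3, to 738 CPM in 12 h p.r. replicate 1, and to 89.0 to 383 CPM in the other rats. By edgeR's test, 3 of the 8 tenocyte markers and 2 of 7 endothelial markers were higher at 12 h p.r. with an unadjusted p under 0.05, while 1 endothelial and 2 of 6 Schwann cell markers were lower. Markers of muscle, cartilage and bone, leukocytes (8 genes, 722 to 2809 CPM at 12 h p.r. and 1016 to 4007 CPM in NC), smooth muscle and pericytes (8 genes, 1878 to 3576 and 1548 to 2022 CPM), and adipocytes (6 genes, 2732 to 6622 and 3859 to 6678 CPM) had 0 genes at that threshold. Endothelial markers summed to 1309 to 1568 CPM at 12 h p.r. and 1311 to 1440 CPM in NC, and Schwann cell markers to 934 to 1251 and 984 to 1656 CPM. No marker gene was at 0 in all rats, though only 5 of the 8 cartilage and bone markers had enough reads to be tested. In whole tissue, fewer cells of a type and less RNA per cell cannot be told apart, and what part these tissues have in the results was examined only by leaving out libraries and by fits with the mean muscle or cartilage and bone marker level as a covariate. With these covariates, *Itga3* had a log2 fold change of 0.65 and 0.66 and *Zyx* of -0.23 and -0.24, and without a covariate of 0.65 and -0.24.

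No integrin or focal adhesion gene was called 12 hours after the run. By edgeR's quasi-likelihood test, 0 of the 32 genes had an adjusted p under 0.05. The Benjamini-Hochberg adjustment covered all 13937 genes, of which 1, or 0.00718%, passed (*Enc1*, named after its values were seen, lower at 12 h p.r.). The Wald test of DESeq2 also called 0 of the 32, and 96 of the 21046 genes it was run on. At an unadjusted p under 0.05, both tools gave 2 of the 32 genes, 1 higher at 12 h p.r. (*Itga3*, an alpha chain of laminin receptors) and 1 lower (*Zyx*, which codes for zyxin of focal adhesions and stress fibers). Among all genes tested by edgeR, 5.44% were higher and 4.08% lower at this threshold, or 9.51% together, against 2 of 32 genes (6.25%). With DESeq2 the share was 6.47%, but of 21046 genes with any read, which include genes with too few reads for edgeR's test. Of the 32 genes, 18 (56.25%) had a log2 fold change above 0, against 54.2% of all genes tested, and 14 had one below 0. The median was 0.03 (0.02 over all genes), with a range from -0.45 to 0.65. *Zyx* was the single gene of the 32 for which all 12 h p.r. rats were below all NC rats (2.55% of all genes), and 0 genes had all 12 h p.r. rats above all NC rats (3.52% of all genes).

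**Figure D1:**
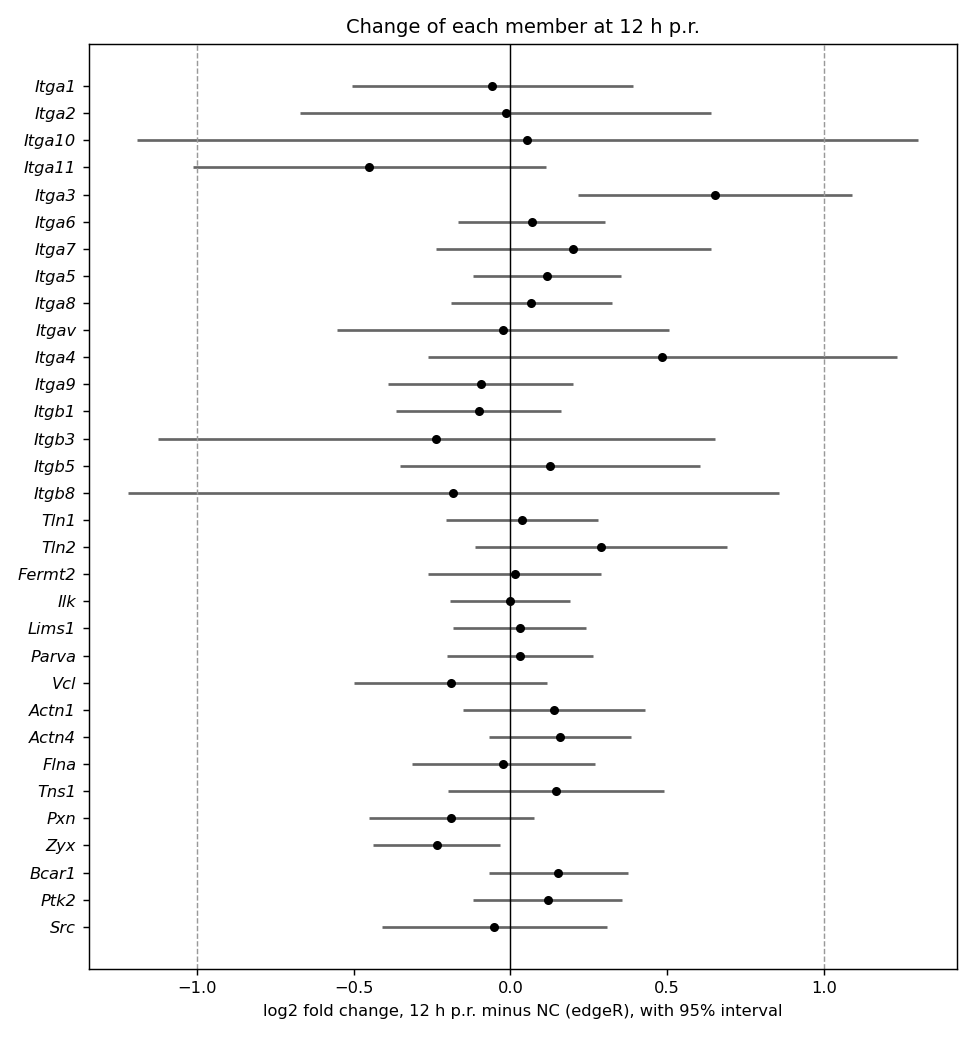
Log2 fold change (12 h p.r. minus NC) of each of the 32 genes from edgeR, with bars for the 95% confidence interval from 4 rats per group. The points lie between -0.45 and 0.65, and the intervals of Itga3 and Zyx alone leave out 0.

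The intervals say how large a difference these rats could have hidden. For 26 of the 32 genes (81.2%), the 95% confidence interval of the log2 fold change lay within 1 of zero on either side, so that a 2-fold difference lay outside it, against 79.6% of all genes tested. All 16 intracellular adhesion proteins were among them, and 10 of the 16 integrin subunits. The exceptions were the integrin genes *Itga3*, *Itga4*, *Itga10*, *Itga11*, *Itgb3*, and *Itgb8*. Rats of 1 group varied more in the integrin subunits, with a median SD of log2 CPM of 0.34 within groups, than in the adhesion proteins, with 0.14. Over all genes that median was 0.23. Some integrin subunits had few reads over all rats, such as *Itgb8* with 408 and *Itga4* with 580. The adhesion protein with the fewest reads, *Tln2*, had 2944. What part read depth has in this contrast was not tested.

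The 4 alpha chains described first form collagen receptors with the beta 1 chain. *Itga1* was the most abundant of them by length-scaled level, at a mean of 9.24 FPKM (fragments per kilobase of gene, scaled for library size) over the 8 rats. *Itga11*, which in fibroblasts binds fibrillar collagen, came to 4.84, *Itga10* to 4.42, and *Itga2* to 2.27 FPKM. None passed the test, and *Itga11* had the lowest log2 fold change of all 32 genes. Its CPM were 25.1, 15.8, 11.5, and 23.5 in 12 h p.r. replicates 1 to 4 and 25.3, 21.4, 33.5, and 23.5 in NC replicates 1 to 4. The groups overlapped: 12 h p.r. replicates 1 and 4 lay within the NC range, while replicates 2 and 3 lay below it. The log2 fold change of *Itga11* was -0.45 (SE 0.25, 95% interval -1.01 to 0.11, adjusted p = 0.605). Without 12 h p.r. replicate 3, the library rich in muscle markers, it was -0.27, and with the muscle covariate it was -0.47. It was -0.61 without 12 h p.r. replicate 1, where edgeR's unadjusted p was 0.0426. The value nearest to zero was -0.12, with 12 h p.r. replicate 3 and NC replicate 3 both left out.

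*Itga10*, a chain best known from cartilage cells, varied most between rats of the 4. Its CPM were 19.1, 32.9, 4.28, and 34.7 at 12 h p.r. and 13.04, 31.96, 28.8, and 14.3 in NC, a ratio of 8.11 between the highest and the lowest rat. The lowest was again 12 h p.r. replicate 3. Both groups spread over most of the range, and the log2 fold change was 0.05 with a 95% interval of -1.19 to 1.301 (adjusted p = 0.987). Without 12 h p.r. replicate 3 it was 0.40. *Itga1* ran from 28.7 to 49.1 CPM with a log2 fold change of -0.06 (SE 0.20), and *Itga2* from 5.70 to 13.7 CPM with -0.02 (SE 0.29).

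The chains *Itga3*, *Itga6*, and *Itga7* form laminin receptors, and all 3 had a log2 fold change above 0, as had 54.2% of all genes. *Itga3* serves adhesion of epithelial and other cells to laminin. Its CPM were 30.9, 22.1, 33.9, and 29.0 in 12 h p.r. replicates 1 to 4, and 15.3, 14.2, 20.2, and 23.8 in NC replicates 1 to 4. All 12 h p.r. rats other than replicate 2 were above every NC rat, and that rat lay below NC replicate 4. The mean was 29.0 ± 4.99 CPM (SD, 4 rats) at 12 h p.r. and 18.4 ± 4.48 CPM in NC, a fold of 1.57. The log2 fold change was 0.65 (SE 0.19, 95% interval 0.22 to 1.09, edgeR unadjusted p = 0.0081, adjusted p = 0.433). The exact permutation test of *Itga3* gave p = 0.0571 (two-sided), where the smallest value that 4 against 4 rats allow is 0.0286. In length-scaled level, *Itga3* came to 5.87 ± 1.01 FPKM at 12 h p.r. and 3.74 ± 0.91 FPKM in NC, still among the less abundant alpha chains. By edgeR's unadjusted p it had rank 258 of the 13937 genes. The library rich in muscle markers had the highest *Itga3* value. Without it the log2 fold change was 0.57 with edgeR's unadjusted p = 0.0199.

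*Itga6* and *Itga7* were more abundant than *Itga3*, at 24.1 and 28.8 FPKM. *Itga7* is the main laminin-binding chain of skeletal muscle fibers. Its CPM were 190.5, 121.8, 187.8, and 126.4 at 12 h p.r. and 125.4, 172.6, 135.1, and 112.2 in NC. The 3 highest rats were 12 h p.r. replicates 1 and 3 and NC replicate 2, whose summed muscle markers were 3270, 61600, and 9181 CPM. NC replicate 3, with the next highest muscle sum after 12 h p.r. replicate 3 (11393 CPM), had 135.1 CPM of *Itga7*. The groups overlapped, with a log2 fold change of 0.20 (SE 0.19, adjusted p = 0.772), which was 0.09 without 12 h p.r. replicate 1 and 0.33 without NC replicate 2. *Itga6* lay between 131.6 and 162.2 CPM in all rats, with a log2 fold change of 0.07 (SE 0.10, adjusted p = 0.868).

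The upstream sequences of *Itga3* and *Zyx* are shown because these were the only 2 of the 32 genes past the unadjusted threshold, and they differed in opposite directions. Promoter windows taken from RefSeq on the build GRCr8 were found for 24 of the 32 genes. There were 28 windows in all, since some genes have more than 1. For *Itga3* and *Zyx*, the 250 bases before the gene start are printed. The capitals mark GGAATG, a core sequence bound by TEAD factors, read on either strand, so that CATTCC is the same motif on the other strand. The *Itga3* window lies at chr10:80518902-80519151 on the minus strand, and the *Zyx* window at chr4:72203750-72203999 on the plus strand. Both are printed 5′ to 3′ along the gene.
Itga3: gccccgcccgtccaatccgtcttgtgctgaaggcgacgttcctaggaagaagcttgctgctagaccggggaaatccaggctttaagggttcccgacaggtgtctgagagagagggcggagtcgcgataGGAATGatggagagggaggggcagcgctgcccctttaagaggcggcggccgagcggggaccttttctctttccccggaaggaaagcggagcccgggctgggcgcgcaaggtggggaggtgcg
Zyx: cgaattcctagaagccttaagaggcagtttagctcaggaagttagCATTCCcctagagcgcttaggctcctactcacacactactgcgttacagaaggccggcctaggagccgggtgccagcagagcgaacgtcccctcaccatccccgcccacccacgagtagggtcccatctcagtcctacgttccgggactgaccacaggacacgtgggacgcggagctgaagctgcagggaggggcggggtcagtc
The motif lay 122 bases before the start of *Itga3* and 205 bases before the start of *Zyx*. GC content was 64% and 60.8% in these windows. Another *Zyx* window, at chr4:72204185-72204434, held 0 copies of GGAATG. Motif shares were counted over the whole windows, which were not cut to 250 bases. GGAATG was present in 8 of the 28 windows of the 32 genes (28.6%: *Flna*, *Itga10*, *Itga3*, *Itga4*, *Itgb1*, *Itgb8*, *Vcl*, and *Zyx*), and in 14.2% of all 33469 windows. The other 3 motifs searched were the TATA box (TATAAA), found in 3.57% of the member windows (*Lims1*) against 14.2% of all, the GC box (GGGCGG), found in 60.7% against 33.1%, and the CArG box, found in 0 member windows against 1.64% of all. With 28 member windows, 0 with a CArG box cannot be told apart from a share of 1.64%. These shares describe the letters of the windows only, and motif copies did not overlap the GC box in the printed windows.

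Alpha chains that bind RGD motifs were *Itga5*, *Itga8*, and *Itgav*. *Itga5*, whose receptor binds fibronectin, had a mean length-scaled level of 29.9 FPKM over the 8 rats, next to *Itga7* (28.8) and *Itga6* (24.1). The order of the first 2 was not the same in every rat: *Itga7* was above *Itga5* in 12 h p.r. replicates 1 and 3 and NC replicate 2, and below it in the other 5 rats. *Itgav*, the alpha chain of vitronectin receptors, came to 8.60 FPKM and *Itga8* to 6.02 FPKM. None differed beyond the spread between rats. *Itgav* had 24.7, 41.0, 18.7, and 27.6 CPM at 12 h p.r. and 22.8, 25.7, 35.5, and 29.5 CPM in NC, the lowest value again in 12 h p.r. replicate 3. The log2 fold changes were 0.12 for *Itga5*, 0.07 for *Itga8*, and -0.02 for *Itgav* (adjusted p = 0.755, 0.884, and 0.986). *Itga4*, a chain found on leukocytes, came to 2.22 FPKM, and *Itga9* to 7.43 FPKM. The CPM of *Itga4* were 7.62, 10.4, 9.86, and 6.28 at 12 h p.r. and 6.16, 3.18, 9.95, and 4.84 in NC. The groups overlapped, and the log2 fold change of 0.48 (SE 0.33) had an interval of -0.26 to 1.23 (adjusted p = 0.677). Without NC replicate 3 it was 0.84 with edgeR's unadjusted p = 0.0179, and without NC replicate 2 it was 0.28. *Itga9* differed by -0.10 (adjusted p = 0.846).

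**Figure D2:**
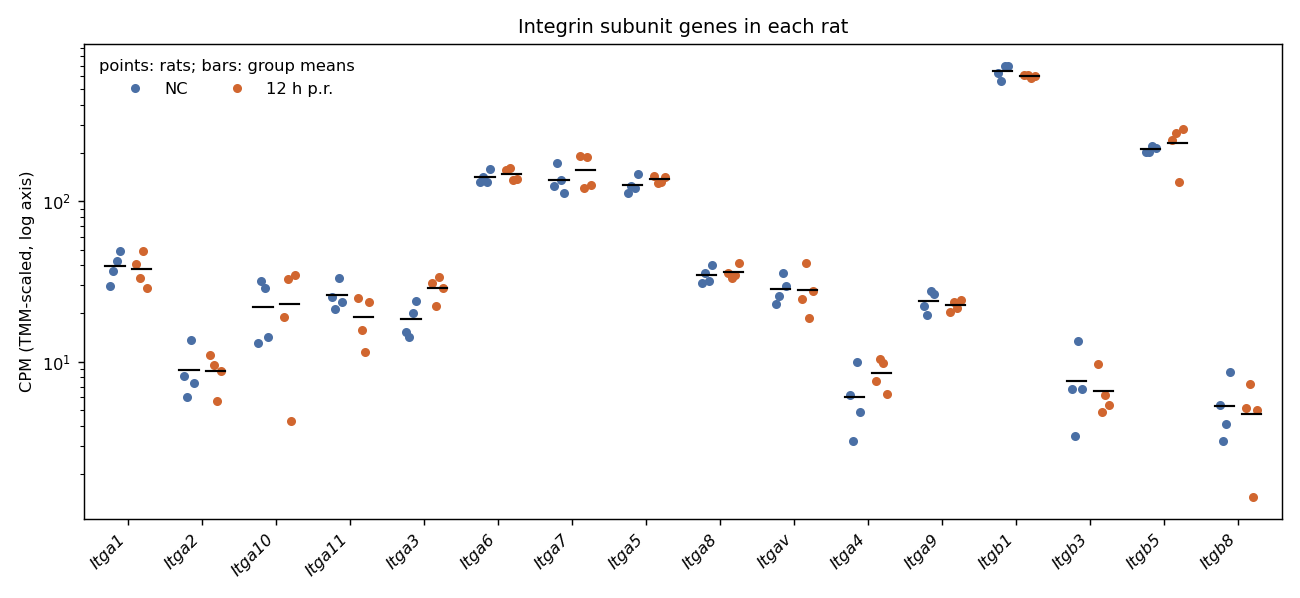
CPM (log axis) of the 16 integrin subunits in each of the 8 rats, with points for rats and short lines for the group means of 12 h p.r. and NC. The groups overlap in all 16 genes, and 12 h p.r. replicate 3 is the lowest rat for Itga2, Itga10, Itga11, Itgav, Itgb5, and Itgb8.

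Among the 4 beta chains of the 32 genes, *Itgb1*, which partners the collagen and laminin receptors, was the most abundant. Its mean level of 171 FPKM was the highest of the 32 genes and lay at percentile 96.7 of all genes tested. *Itgb5* followed with 56.5 FPKM, *Itgb3* with 2.94, and *Itgb8* with 1.43 FPKM. In CPM, *Itgb1* was 613, 612, 588, and 604 at 12 h p.r. and 628, 562.5, 701, and 702 in NC. The 12 h p.r. rats all lay inside the NC range, with a mean of 604 ± 11.8 CPM (SD) against 648 ± 66.8 CPM and a log2 fold change of -0.10 (SE 0.12, adjusted p = 0.813).

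*Itgb5*, a beta chain of vitronectin receptors, was 239.4, 267.9, 132.1, and 281.5 CPM at 12 h p.r. and 203.0, 203.6, 221.7, and 215.5 CPM in NC. Replicates 1, 2, and 4 of the running group were above all NC rats, and replicate 3 was below all of them. The log2 fold change was 0.13 (SE 0.21, adjusted p = 0.881) with all rats, and 0.08 with the muscle covariate. Without 12 h p.r. replicate 3 it was 0.32 with edgeR's unadjusted p = 0.0128 and an adjusted p of 0.397. Whether *Itgb5* passed the unadjusted threshold thus turned on that library, and without 12 h p.r. replicate 4 the log2 fold change was 0.015. *Itgb8* rested on 12 to 101 reads per rat and had a log2 fold change of -0.18 (SE 0.46), and *Itgb3* had -0.24 (SE 0.39).

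The makeup of the alpha chains can be given as a share of their summed FPKM, assuming that FPKM is comparable between genes. Laminin-binding chains held 44.8 ± 4.33% (SD) of the alpha sum at 12 h p.r. and 42.2 ± 3.35% in NC, RGD-binding chains 33.5 ± 2.57 and 33.6 ± 2.12%, and collagen-binding chains 14.5 ± 1.57 and 16.8 ± 2.00%. *Itga4* and *Itga9* together held 7.18 ± 0.81 and 7.405 ± 1.41%. The collagen-binding share ran from 12.3% in 12 h p.r. replicate 3 to 19.7% in NC replicate 3. Per rat, *Itga5* held 20.4 to 24.9% of the sum, *Itga7* 16.5 to 27.5%, and *Itga6* 16.4 to 20.2%. The share of *Itga3* was 4.30 ± 0.73% at 12 h p.r. and 2.89 ± 0.59% in NC. Of the summed FPKM of the 4 beta chains, *Itgb1* held 68.5 to 81.3% and *Itgb5* 17.2 to 30.0%. The highest *Itgb1* share was in 12 h p.r. replicate 3. Both sums leave out the integrin subunits of the wider list described below, such as *Itgb4* at 35.5 FPKM.

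**Figure D3:**
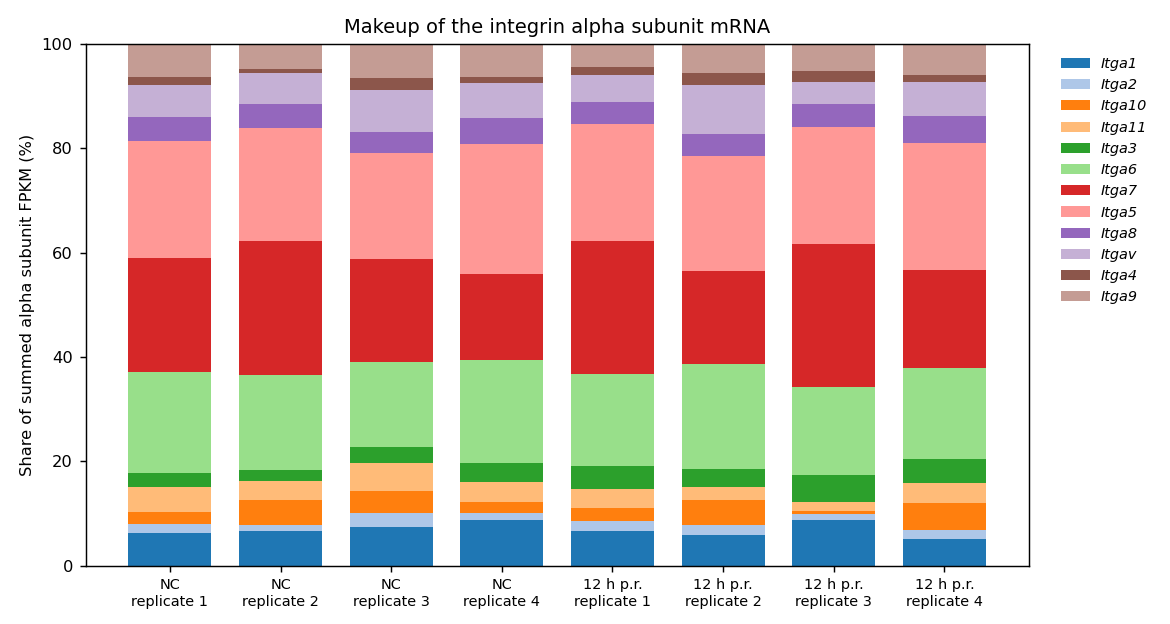
Stacked bars of the share (%) that each of the 12 alpha chains holds of their summed FPKM, for each of the 8 rats. Itga5, Itga7, and Itga6 are the largest parts in every rat, and Itga10 is smallest in 12 h p.r. replicate 3.

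Talins and kindlin bind the beta tails and switch integrins on, and 0 of these 3 genes passed the test. *Tln1* was 208.3 to 263.6 CPM over all rats with a log2 fold change of 0.04 (adjusted p = 0.936), and *Fermt2*, which codes for kindlin-2 of mesenchymal cells, was 224.6 to 295.7 CPM with 0.01 (adjusted p = 0.984). *Tln2*, the talin enriched in muscle, had the widest interval of the 16 adhesion proteins. Its CPM were 39.7, 43.8, 50.02, and 30.2 at 12 h p.r. and 31.0, 26.3, 40.8, and 35.5 in NC, with the highest value in the library rich in muscle markers and 12 h p.r. replicate 4 below 3 of the NC rats. The log2 fold change of *Tln2* was 0.29 (SE 0.18, adjusted p = 0.647), 0.18 without 12 h p.r. replicate 3, and 0.41 without 12 h p.r. replicate 4, where edgeR's unadjusted p was 0.0328.

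*Ilk*, *Lims1*, and *Parva*, whose products form the ILK-PINCH-parvin complex, were the steadiest group. *Ilk* was 167.7, 176.2, 160.6, and 173.4 CPM at 12 h p.r. and 168.2, 171.5, 160.2, and 179.2 CPM in NC. The highest rat was 1.12 times the lowest, and the groups overlapped over nearly their whole range. The log2 fold change of *Ilk* was -0.0024 (SE 0.08) with an interval of -0.19 to 0.19. *Lims1* and *Parva* had 0.03 each (adjusted p = 0.941 and 0.943). By length-scaled level, *Ilk* came to 97.4, *Parva* to 43.9, and *Lims1* to 24.7 FPKM.

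Among the linkers to actin, *Vcl* (vinculin) and *Flna* (filamin A) had log2 fold changes below 0 and *Actn1*, *Actn4* (alpha-actinins), and *Tns1* (tensin) above 0. *Vcl* was 140.7, 149.7, 196.4, and 148.4 CPM at 12 h p.r. and 174.2, 177.4, 161.7, and 211.7 CPM in NC. The 12 h p.r. rats other than replicate 3 were below all NC rats, and replicate 3 was above every NC rat but NC replicate 4. With all rats the log2 fold change of *Vcl* was -0.19 (SE 0.14, adjusted p = 0.689), and -0.20 with the muscle covariate. It was -0.31 without that library, with edgeR's unadjusted p = 0.0244 and an adjusted p of 0.407, and -0.11 without NC replicate 4. *Actn4* was 420.8, 386.6, 417.5, and 452.2 CPM at 12 h p.r. and 360.9, 368.2, 388.5, and 385.6 CPM in NC. Replicate 2 of the 12 h p.r. rats lay below NC replicate 3 and the other 3 lay above all NC rats. Its log2 fold change was 0.16 (SE 0.10, adjusted p = 0.653), and the exact permutation test gave p = 0.0571. *Actn1* had a log2 fold change of 0.14 (0.08 without NC replicate 1 and 0.24 without NC replicate 4), that of *Tns1* was 0.15 (0.04 without 12 h p.r. replicate 1), and that of *Flna*, the most abundant linker at 102 FPKM, was -0.02 (SE 0.13).

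Zyxin and the other scaffolds and kinases included the other gene past the unadjusted threshold. *Zyx* was 127.7, 115.1, 131.3, and 127.8 CPM in 12 h p.r. replicates 1 to 4 and 150.2, 137.5, 143.0, and 160.2 CPM in NC replicates 1 to 4. The highest 12 h p.r. rat, replicate 3, was below the lowest NC rat, replicate 2, so the groups did not overlap. Means were 125 ± 7.11 CPM (SD) at 12 h p.r. and 148 ± 9.80 CPM in NC, a ratio of 0.849. The log2 fold change was -0.24 (SE 0.09, 95% interval -0.44 to -0.03, edgeR unadjusted p = 0.0278, adjusted p = 0.478), and the exact permutation test of *Zyx* gave p = 0.0286, the smallest possible here. It passed the unadjusted threshold in 16 of 20 alternative settings, and not with the replicate number as a block or without 12 h p.r. replicate 2, NC replicate 1, or NC replicate 4.

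*Pxn* (paxillin), *Bcar1* (p130Cas), *Ptk2* (FAK), and *Src*, the remaining scaffolds and kinases, did not pass the test. *Pxn* had a log2 fold change of -0.19 (SE 0.12, adjusted p = 0.648), with 12 h p.r. replicates at 148.1, 124.4, 160.0, and 147.6 CPM and NC replicates at 170.2, 144.2, 159.5, and 187.3 CPM, so that the groups overlapped. *Bcar1* had 0.15 (adjusted p = 0.655), and 0.22 without 12 h p.r. replicate 2, with edgeR's unadjusted p = 0.0296. *Ptk2* had 0.12 (adjusted p = 0.751), and 0.06 without 12 h p.r. replicate 1, and *Src* had -0.05 (adjusted p = 0.939). *Src* was lowest in 12 h p.r. replicate 3, at 26.4 CPM, and ran from 33.9 to 44.8 CPM elsewhere.

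**Figure D4:**
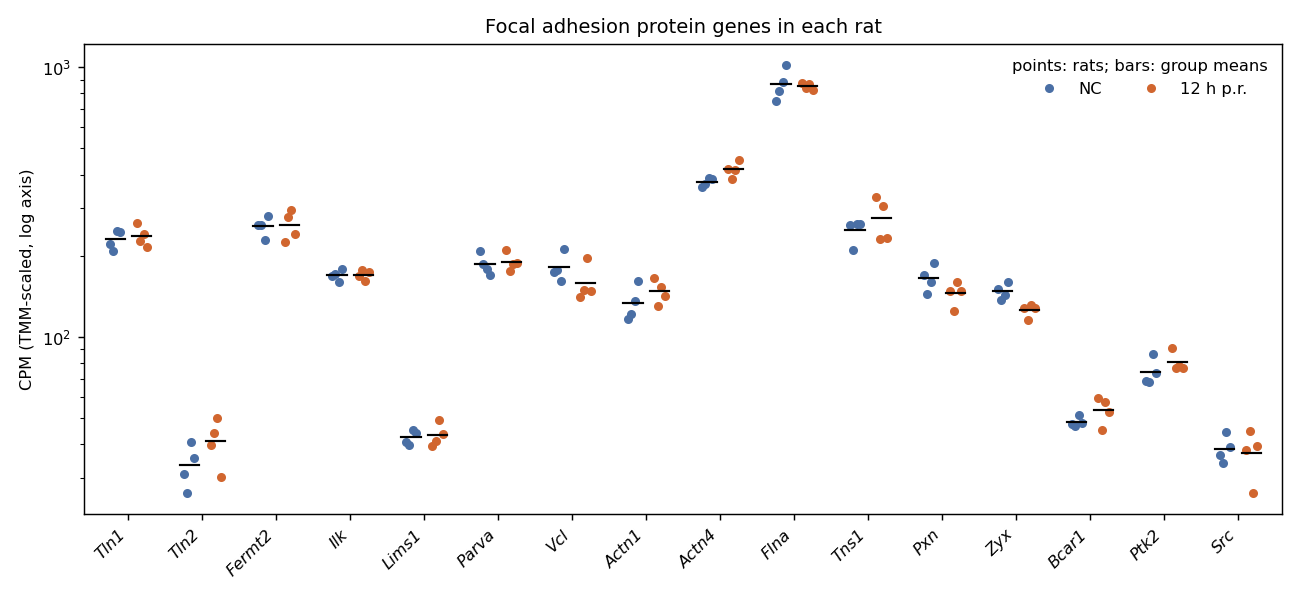
CPM (log axis) of the 16 intracellular adhesion proteins in each of the 8 rats, with points for rats and short lines for the group means of 12 h p.r. and NC. Zyx is the gene in which all 12 h p.r. rats (at most 131.3 CPM) lie below all NC rats (at least 137.5 CPM).

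The highest and lowest values were spread unevenly over the rats, which is given as a count with no test. NC replicate 4 was the highest rat for 9 of the 32 genes, among them *Itgb1*, *Vcl*, *Flna*, *Pxn*, and *Zyx*, and NC replicate 2 was the lowest for 9, among them *Itga3*, *Itgb1*, *Tln1*, and *Ptk2*. Among the rats that ran, 12 h p.r. replicate 1 was the highest for 7 genes and 12 h p.r. replicate 3 the lowest for 7. NC replicates 1 and 2 were the highest for 0 genes.

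**Figure D5:**
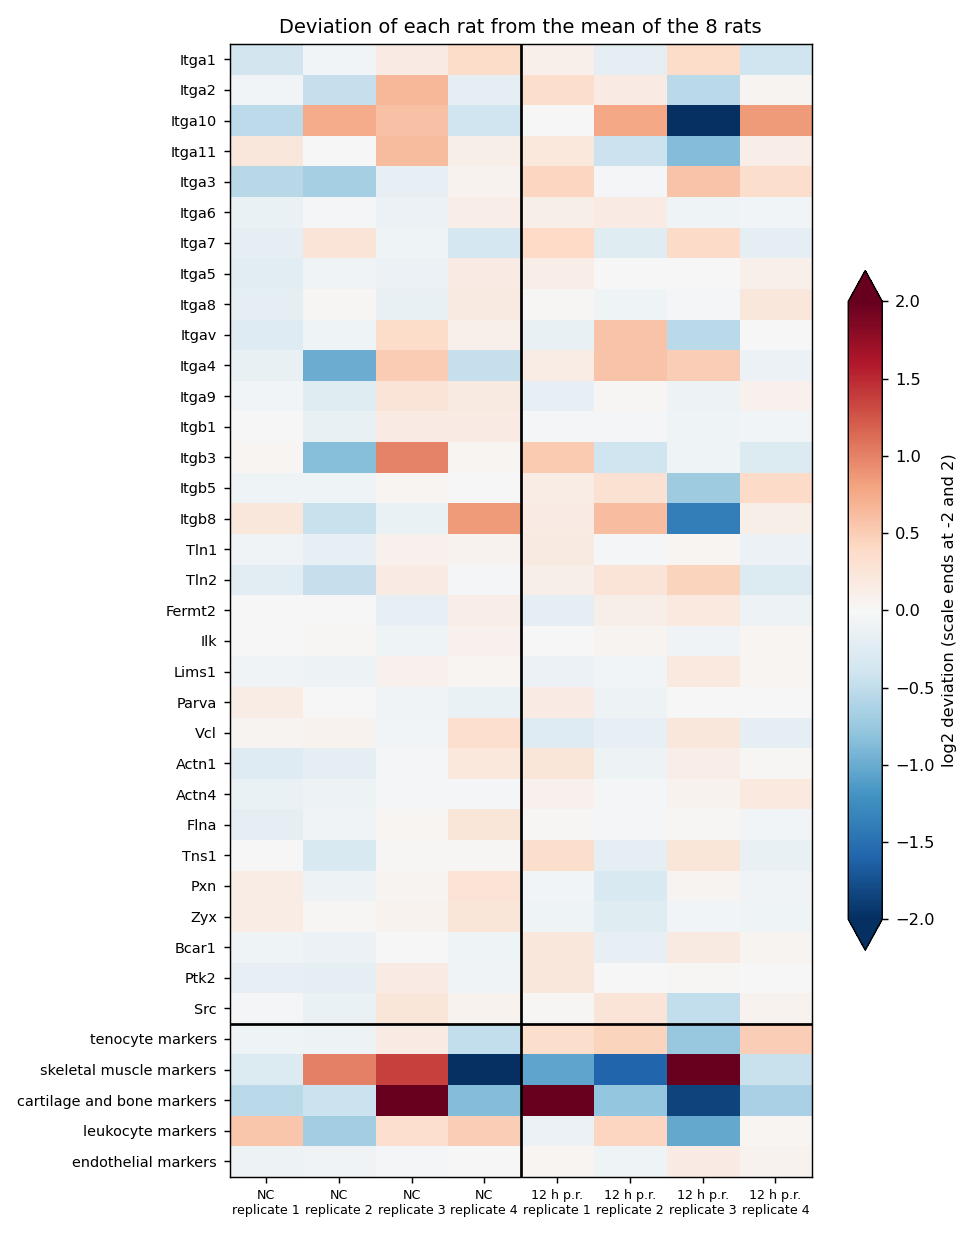
Colors give the log2 deviation of each of the 32 genes and of 5 marker lists (vertical axis) in each rat (horizontal axis) from the mean of the 8 rats, with a scale that ends at -2 and 2. NC replicate 4 is the highest rat for 9 genes and 12 h p.r. replicate 3 the lowest for 7, among them Itga10 and Itgb5.

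A wider list of 66 adhesion genes was read from the same fit to set the 32 genes in their pathway. It held further integrin subunits, focal adhesion proteins, adhesion kinases and exchange factors, and other matrix receptors. Of the 64 found in the table, 63 were tested. None passed the adjusted threshold by edgeR's test. At an unadjusted p under 0.05, 3 stood above the NC level and 2 stood below it, or 7.94% of the tested genes, a smaller share than the 9.51% of all genes (5.44% higher and 4.08% lower). The median log2 fold change was 0.02.

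*Cd151*, a tetraspanin that associates with laminin-binding integrins, had the lowest p of the wider list. Its CPM were 34.9, 20.6, 23.9, and 34.2 at 12 h p.r. and 17.4, 17.1, 13.04, and 17.1 in NC. All 12 h p.r. rats were above all NC rats, with a log2 fold change of 0.82 (SE 0.19, edgeR unadjusted p = 0.00204, adjusted p = 0.392). *Arhgef7*, an exchange factor for Rac and Cdc42, was 102 ± 4.86 against 87.8 ± 6.29 CPM, and *Kank2*, which binds talin, 217 ± 22.2 against 184 ± 10.6 CPM, and in both all 12 h p.r. rats were above all NC rats, as in 3.52% of all genes. Their log2 fold changes were 0.22 and 0.24 (adjusted p = 0.488 and 0.520). The groups of *Kank2* nearly touched, with 195.4 CPM in 12 h p.r. replicate 3 and 195.2 CPM in NC replicate 1. *Sdc4*, the heparan sulfate proteoglycan syndecan-4 that acts with integrins at focal adhesions, was 26.1, 42.2, 17.1, and 36.4 CPM at 12 h p.r. and 55.2, 37.6, 45.5, and 70.2 CPM in NC. Replicate 2 of the 12 h p.r. rats lay above NC replicate 2, so the groups overlapped, and the log2 fold change was -0.78 (SE 0.28, adjusted p = 0.468). *Enah*, an actin-elongating protein of adhesions, was 18.6 ± 4.42 against 26.3 ± 6.04 CPM (log2 fold change -0.50, adjusted p = 0.507). *Itgb4*, the beta chain that pairs with *Itga6* (named after its values were seen), came to 35.5 FPKM, with a log2 fold change of 0.20 and an adjusted p of 0.639. The extremes of the wider list were the muscle alpha-actinins *Actn3* (2.20) and *Actn2* (-0.94), named after their values were seen. *Actn3* is also a marker of skeletal muscle in the list above, and its CPM ran from 1.70 in NC replicate 4 to 2934 in 12 h p.r. replicate 3.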

How the data were processed

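Per the submitters' processing notes, reads were aligned to Rnor_6.0 with HISAT2 2.1.0 and counted with featureCounts 1.6.3. The authors deposited raw counts per gene and rat, without normalization, from a stranded library kit. Whether the counting used strand, and how it treated reads matching several genes, is not given in the sources used here. The FPKM values deposited by the authors correct the counts for gene length and for library size, and the library factors recovered from them equalled DESeq2 size factors and not total counts. A deposited table of the authors' own comparison (DESeq2 1.30.1) holds fold changes and p-values and was not used.

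Here, filterByExpr and TMM factors of edgeR 4.0.16 (R 4.3.3) preceded the quasi-likelihood test of all 8 rats (4 per group), with Benjamini-Hochberg adjustment over 13937 genes. That test returns no SE, so the SE was the absolute log2 fold change divided by the square root of its F statistic. The 95% intervals were formed from this SE and the t distribution. CPM divide a count by the library size after TMM scaling and multiply it by 1e+06. Exact permutation tests of single genes were two-sided, on log2(CPM + 0.5), with 0.0286 as the smallest p. By this test *Zyx*, *Itga3*, and *Actn4*, whose values are given, had the lowest p of the 32 members. *Itga4* came next, with a permutation p of 0.171. Alternatives used DESeq2 1.42.0, limma 3.58.1 on log2(FPKM + 1) or log2(FPKM + 0.1), other factors and filters, covariates, a block, and rats left out. In data simulated with 200 changed genes, with a size of change not given here, edgeR recovered 75% of them and DESeq2 84%. Total counts of 7350509 to 12951397 per rat limit the precision for genes with few reads. Of 28 pairs of libraries, 0 were identical. The members, lists, and rules were chosen with earlier results of these data known. Named genes are the 32 members, those of the wider list with an unadjusted p under 0.05, and, named after their values were seen, *Enc1*, *Itgb4*, *Actn2*, and *Actn3*. Promoter windows of RefSeq are on GRCr8, another build than the counts, and protein sequences were not used here.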

Additional observations from a re-analysis of the deposited data

Results flagged for a closer look

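Within each group of 4 rats, the highest and the lowest value were compared with the nearest of the others by Dixon's criterion for the 32 genes, the 8 marker lists, and the total counts. Of 82 groups of values examined, 4 held a rat that stood apart, where chance gives about 1 in 20 groups, or 4.1 of these. NC replicate 2 had the lowest *Tns1* of the NC rats, 7.713 on the log2(CPM + 0.5) scale against 8.022 in the nearest rat. For *Ptk2*, 12 h p.r. replicate 1 was the highest of its group, 6.509 against 6.296. The mean log2 CPM of the tenocyte markers was lowest in 12 h p.r. replicate 3 among the running rats, 8.604 against 9.713. The mean log2 CPM of the cartilage and bone markers was highest in NC replicate 3 among the NC rats, 5.418 against 2.045.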

How the results depend on the processing

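Of 640 recomputed log2 fold changes of single members, 588 kept their direction and their side of the adjusted p threshold, 52 changed sign, and 17 members never changed sign. No setting, an adjusted p under 0.1 included, called any of the 32 genes. *Itga3* had an unadjusted p under 0.05 in 20 of 20 alternatives (0.54 to 0.80, lowest adjusted p 0.168 with DESeq2) and *Zyx* in 16 (-0.27 to -0.20). *Itga4*, *Itgb5*, and *Vcl* passed that threshold in only 2 of the 20 alternatives, and *Itga11*, *Tln2*, and *Bcar1* in only 1.

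Over all genes, the 1 gene with an adjusted p under 0.05 became 96 of 21046 with DESeq2 and 0 with each limma setting, the replicate block, either marker covariate, both replicates 3 left out, and any rat left out. With both replicates 3 left out, members higher and lower at an unadjusted p under 0.05 were 3 and 2 in place of 1 and 1, while the share of all genes at that threshold was 10.8% in place of 9.51%, and wider genes higher were 1 in place of 3. Leaving out each rat gave 1 to 2 members higher and 0 to 2 lower, with 6.28 to 11.1% of all genes at that threshold, and 1 (without 12 h p.r. replicate 4 or NC replicate 2) to 5 (without 12 h p.r. replicate 2) wider genes higher and 0 (without NC replicate 4) to 2 lower. With no filter, 1 wider gene was higher, and 1 was lower with limma on log2(FPKM + 1) and no filter. Same-numbered rats had correlations of their deviations of 0.07, -0.20, 0.13, and 0.09, so the numbers were not taken to pair rats. The replicate block left 0 members lower and gave -0.24 for *Zyx* (adjusted p = 0.722), and 974 of all genes had an unadjusted p under 0.05, against 1326.

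None of the values that changed sign had an unadjusted p under 0.05, and the cause was not tested. With limma on log2(FPKM + 1), with and without the filter, *Itga2* was 0.0074 and *Itga10* -0.096, and with FPKM + 0.1 they were 0.016 and -0.20. With the replicate block they were 0.031 and -0.077. The muscle covariate gave -0.12 for *Itga10* and 0.00023 for *Ilk*, and the cartilage covariate 0.15 for *Itga2*, 0.029 for *Itgav*, and -0.034 for *Fermt2*. Both replicates 3 left out gave 0.44 for *Itga2*, 0.26 for *Itgav*, 0.0027 for *Itga9*, 0.21 for *Itgb3*, 0.0025 for *Itgb8*, -0.11 for *Fermt2*, -0.0030 for *Lims1*, and 0.16 for *Src*. Leaving out each rat gave ranges of -0.21 to 0.065 for *Itga1*, -0.16 to 0.28 for *Itga2*, -0.23 to 0.40 for *Itga10*, -0.0030 to 0.14 for *Itga8*, -0.27 to 0.13 for *Itgav*, -0.49 to 0.19 for *Itgb3*, -0.46 to 0.15 for *Itgb8*, -0.021 to 0.079 for *Tln1*, -0.055 to 0.076 for *Fermt2*, -0.032 to 0.024 for *Ilk*, -0.036 to 0.071 for *Lims1*, -0.021 to 0.090 for *Parva*, -0.085 to 0.063 for *Flna*, and -0.15 to 0.080 for *Src*. Of members that kept their sign with each rat left out, others moved by over 1.5 times to 0.019 to 0.12 for *Itga6*, 0.063 to 0.20 for *Itga5*, -0.18 to -0.019 for *Itga9*, -0.16 to -0.062 for *Itgb1*, and -0.25 to -0.12 for *Pxn*. Depth limits *Itgb8* most, with 408 reads over all rats.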
